A study of Thermothelomyces thermophilus ATCC 42464 with 24 samples.

Results

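The genes described here are the protein translocation and sec genes of *Myceliophthora thermophila*, a thermophilic cellulose-degrading fungus. They are 6 of the 9110 genes in the deposited count table, taken by name: Mycth_2312007, Mycth_2316209 and Mycth_2309221, each described as a translocation protein, and Mycth_2314749 (sec72), Mycth_2310888 (sec2) and Mycth_2294943 (sec53). No measured value entered this choice here. The 3 translocation protein genes had, however, been singled out on these same libraries from the comparison of ΔlaeA with WT after 2 d on Avicel, and sec72, sec2 and sec53 from that after 4 d, so their directions in those comparisons are not independent evidence. The same limit holds for every other comparison that uses the 2 d or 4 d libraries of ΔlaeA or WT.

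The libraries are RNA-seq libraries of whole mycelium in 12 groups. On 2% glucose, harvested after 24 h at 45 °C in Vogel's salts, the strains were ΔlaeA, labelled as lacking a putative methyltransferase gene, Δgrf-1, Δgrf-2 and Δgrf-3, labelled as lacking growth regulatory factor genes, Δcre-1, labelled as lacking a carbon catabolite repressor gene, and WT. ΔlaeA and WT were also grown on 2% Avicel, a microcrystalline cellulose, for 2, 4 and 6 d. Every mutant was made from the ATCC strain that served as WT, with Cas9 and a selection marker put in place of the coding region: neo in ΔlaeA and bar in the others. How many independent transformants stand behind a strain is not given in the sources used here. Each group had 2 libraries except Δgrf-2, for which 1 library was used because the other column held values of another unit. The labels number the replicates but do not name separate cultures for the glucose samples, so each p-value reflects only how far these libraries scatter, and that scatter may be technical.

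Proteins bound for secretion enter the endoplasmic reticulum (ER) through the Sec61 channel, guided to it during synthesis by the signal recognition particle or after synthesis by cytosolic chaperones. In the yeast *Saccharomyces cerevisiae*, Sec72 belongs to the complex that drives the second route, Sec53 is the phosphomannomutase that feeds mannose into protein glycosylation, and Sec2 activates the small GTPase Sec4, which brings secretory vesicles to the plasma membrane. A filamentous fungus on cellulose depends on this route because its cellulases work outside the cell. The 3 translocation protein genes carry no more specific name in the sources used here.

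The 23 libraries held between 18114947 and 33937501 counted reads, and 8827 genes passed the filter on low counts, all 6 genes among them, with 439 to 21163 reads per gene and library. Levels below are counts per 1000000 counted reads (CPM) scaled by edgeR's TMM factors. A gene is called changed where edgeR's quasi-likelihood test gave a Benjamini-Hochberg adjusted p below 0.05 over all genes tested and the change was at least 2-fold. Between replicates, 1252 genes differed at least 2-fold in Δgrf-3, 674 in WT at 4 d and 575 in WT on glucose, against 161 to 356 in the other pairs. The counts of the deleted genes went against the labels: laeA averaged 224 to 293 CPM in the libraries labelled ΔlaeA and 8.66 to 111 CPM in the WT libraries of the same conditions, and cre-1 averaged 2267 CPM in Δcre-1 and 588 CPM in WT. The log2 fold change was 0.38 for grf-1 in Δgrf-1, 0.43 for grf-3 in Δgrf-3 and -0.75 for grf-2 in Δgrf-2, none of them called. Whether these reads lay outside the replaced region was not tested, so every direction below rests on the strain labels alone. In RNA of whole mycelium, a change in all hyphae and a change in the share of some hyphae cannot be told apart.

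Over the 12 groups the 6 genes each had their own order of levels. Mycth_2312007 averaged from 85.9 CPM in ΔlaeA on glucose to 350.2 CPM in ΔlaeA at 4 d, a 4.08-fold range. Mycth_2316209 averaged from 213 CPM in WT on glucose to 856 CPM in WT at 2 d, a 4.01-fold range. Mycth_2309221 averaged from 111 CPM in ΔlaeA at 2 d to 496 CPM in WT at 4 d, a 4.47-fold range, the widest of the 6. The sec genes moved over narrower ranges. The range was 3.25-fold for sec72, between WT on glucose at 223 CPM and Δcre-1 at 725 CPM. It was 2.59-fold for sec2, between ΔlaeA on glucose at 28.5 CPM and ΔlaeA at 4 d at 73.7 CPM. For sec53 it was 2.81-fold, between ΔlaeA at 6 d at 110.0 CPM and the single Δgrf-2 library at 309 CPM. Of all genes tested, between 35.4% (sec2) and 62.8% (Mycth_2309221) had a smaller range, so the 6 genes were neither the most nor the least variable of the table. Neighbours in these orders were often not separated: the libraries of adjacent groups overlapped at 10 of 11 steps for Mycth_2312007, 9 for sec2, 7 each for Mycth_2316209 and sec53, 6 for sec72 and 4 for Mycth_2309221. Sorting the groups by mean puts close groups side by side, and the share of overlapping steps over all genes was not computed.

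**Figure D1:**
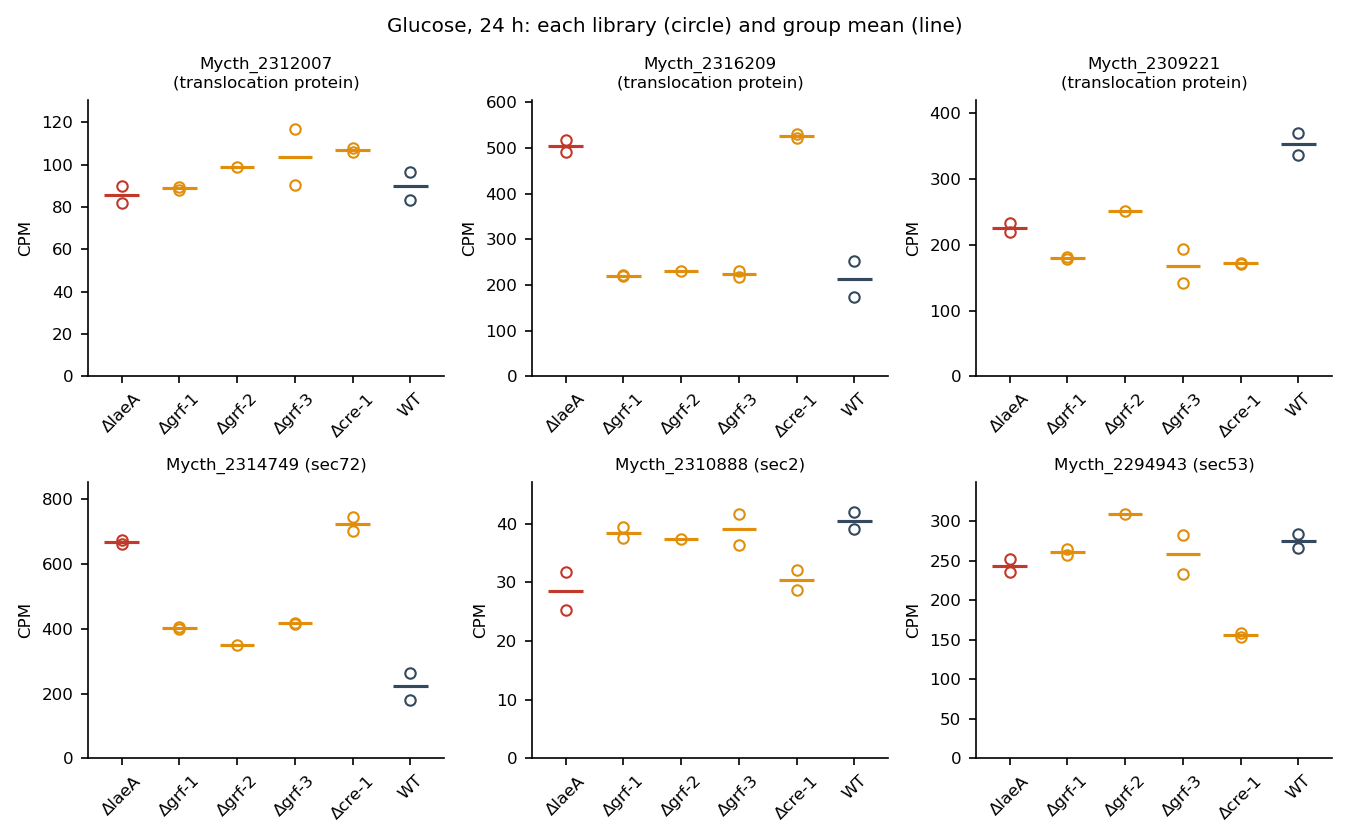
TMM-scaled CPM (vertical axis, linear, from 0) of the 6 genes in each glucose library (circles) with group means (lines), for 5 deletion strains and WT. Mycth_2309221 is lower and sec72 higher in every deletion library than in both WT libraries. The same 2 WT libraries serve all 5 comparisons, and 58.7% (Δgrf-3) to 84.2% (Δcre-1) of all genes had no overlap with WT, per comparison and in either direction. The share of all genes on one side of WT in every deletion library was not computed. Mycth_2316209 stands between 491 and 531 CPM in ΔlaeA and Δcre-1 and at 253 CPM or less in the other strains.

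On glucose, the question was how loss of LaeA, of each growth regulatory factor and of Cre-1 changed the transcriptome. ΔlaeA and Δcre-1 showed raised levels of Mycth_2316209 and sec72. Mycth_2309221 was lower by more than 2-fold in Δgrf-3 and Δcre-1. In Δgrf-1 it was lower, and in Δgrf-1 and Δgrf-3 sec72 was higher, past the adjusted p but short of 2-fold, while in Δgrf-2 neither gene passed the test. All 5 comparisons use the same 2 WT libraries, and these differ for sec72 and for Mycth_2316209, so the strains' values are not independent of each other.

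In ΔlaeA on glucose, 2 of the 6 genes were called, both higher, against 11.9% of all genes tested and 6.28% called higher. The median log2 fold change of the 6 was -0.12, against -0.03 over all genes tested. The translocation protein gene Mycth_2316209 had 491 and 517 CPM in ΔlaeA, against 253 and 174 CPM in WT. It rose by 1.24 ± 0.20 (log2, SE; edgeR adjusted p = 0.000254), and without WT replicate 2 the value was 0.997, just short of 2-fold. The sec72 gene had 674 and 661 CPM in ΔlaeA and 265 and 181 CPM in WT, a rise of 1.58 ± 0.17 (edgeR adjusted p = 7.4e-06). Both groups were well apart for these genes, although the WT pair itself was spread. Of all genes, 71.6% had no overlap between the groups in this comparison. Mycth_2309221 had 219 and 232 CPM in ΔlaeA and 369.7 and 336 CPM in WT, and sec2 had 25.2 and 31.8 CPM in ΔlaeA and 39.1 and 41.9 CPM in WT. These differences of -0.64 ± 0.14 and -0.51 ± 0.16 passed the test on the adjusted p (edgeR, 0.00239 and 0.0278) but were below 2-fold. Mycth_2312007 and sec53 had log2 fold changes of -0.07 ± 0.32 and -0.18 ± 0.15.

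Δcre-1 carried the most calls on glucose, 3 of 6, in a comparison in which 35.6% of all genes were called. The median log2 fold change of the 6 was -0.08, against -0.10 over all genes tested. Mycth_2316209 had 521 and 531 CPM in Δcre-1 against 253 and 174 CPM in WT, a rise of 1.30 ± 0.20 (edgeR adjusted p = 3.35e-05). For sec72 the values were 703 and 747 CPM in Δcre-1 and 265 and 181 CPM in WT, a rise of 1.70 ± 0.17 (edgeR adjusted p = 4.39e-07). Mycth_2309221 had 172 and 171 CPM in Δcre-1 and 369.7 and 336 CPM in WT, a change of -1.04 ± 0.14 (edgeR adjusted p = 8.54e-06), which came to -0.97 without WT replicate 1. Short of 2-fold, sec53 had 154 and 159 CPM in Δcre-1 and 283 and 266 CPM in WT (-0.81 ± 0.15, edgeR adjusted p = 0.000242). Also short of it, sec2 had 32.1 and 28.8 CPM in Δcre-1 and 39.1 and 41.9 CPM in WT (-0.41 ± 0.16, edgeR adjusted p = 0.0378). Mycth_2312007 had a log2 fold change of 0.25 ± 0.32. The scaling matters most in this strain: with library totals in place of TMM factors the median of all genes in Δcre-1 moved to -0.69. With that scaling the change of Mycth_2316209 came to 0.70, that of sec53 to -1.41 and that of sec2 to -1.01. No direction of a called gene turned under either scaling.

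The 3 Δgrf strains each gave few calls. In Δgrf-1, edgeR called 0 of 6 genes, against 15% of all genes, DESeq2 called 0, and 2 had an unadjusted p below 0.05. Those were Mycth_2309221, with 179 and 182 CPM in Δgrf-1 against 369.7 and 336 CPM in WT (-0.97 ± 0.14, edgeR adjusted p = 9.71e-05), and sec72, with 399 and 405 CPM in Δgrf-1 against 265 and 181 CPM in WT (0.85 ± 0.17, edgeR adjusted p = 0.00125). Both lay close to the 2-fold line: without WT replicate 2, Mycth_2309221 was called at -1.03, and without WT replicate 1, sec72 was called at 1.15. In Δgrf-3, 1 of 6 genes was called, against 13.5% of all genes. That gene was Mycth_2309221, with 141 and 194 CPM in Δgrf-3 against 369.7 and 336 CPM in WT (-1.07 ± 0.14, edgeR adjusted p = 4.52e-05). Without Δgrf-3 replicate 1 its change was -0.86 and no longer called, nor was it, at -1.10, with only both groups in the fit. The sec72 gene had 417 and 419 CPM in Δgrf-3 against 265 and 181 CPM in WT (0.90 ± 0.17), and it was called at 1.21 without WT replicate 1. In the single Δgrf-2 library, Mycth_2309221 stood at 252 CPM and sec72 at 352 CPM. edgeR called 0 of 6 genes there, against 5.08% of all genes, DESeq2 called 0, and 2 had an unadjusted p below 0.05, with the library assumed to vary like those of the other groups. The median log2 fold changes of the 6 genes were -0.05 in Δgrf-1, 0.13 in Δgrf-2 and 0.01 in Δgrf-3, against 0.00, -0.01 and 0.02 over all genes tested. Across these 3 strains, the log2 fold changes of Mycth_2312007, Mycth_2316209, sec2 and sec53 lay between -0.11 and 0.21.

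**Figure D2:**
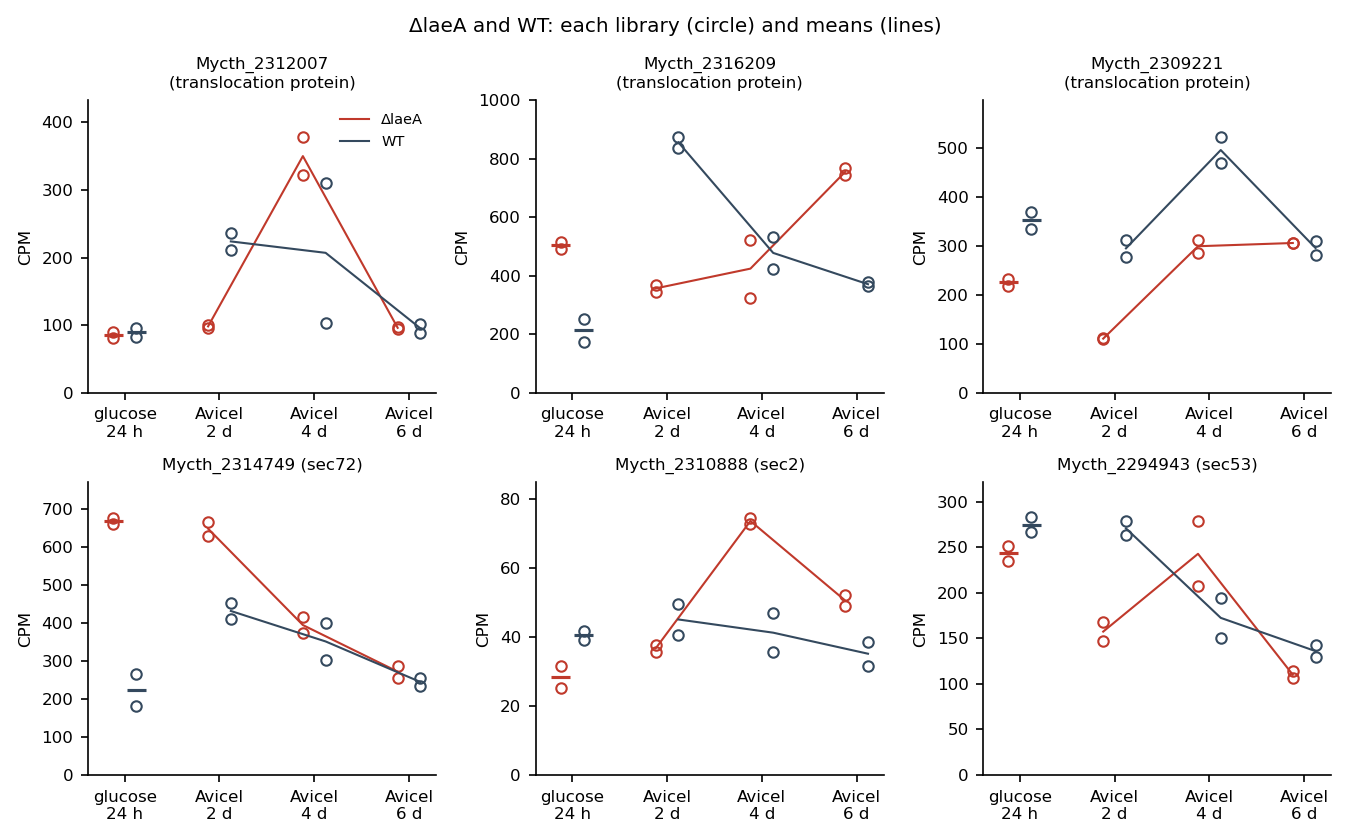
TMM-scaled CPM (vertical axis, linear, from 0) of the 6 genes in each ΔlaeA and WT library (circles) on glucose at 24 h and on Avicel at 2, 4 and 6 d, with lines through the Avicel means and short bars at the glucose means. The 3 translocation protein genes lie below WT in the 2 d ΔlaeA libraries, where 75.5% of all genes had no overlap between the groups. The 4 d WT pair for Mycth_2312007 holds 104 and 310.3 CPM.

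On Avicel, ΔlaeA and WT were set against each other at each day to ask how LaeA shapes the response to cellulose. After 2 d, all 3 translocation protein genes were lower in the libraries labelled ΔlaeA by more than 2-fold. Mycth_2312007 had 100.2 and 96.6 CPM in ΔlaeA and 212 and 236 CPM in WT (-1.19 ± 0.32, edgeR adjusted p = 0.00945). Mycth_2316209 had 369 and 345 CPM in ΔlaeA and 838 and 874 CPM in WT (-1.26 ± 0.20, edgeR adjusted p = 0.000151). Mycth_2309221 had 111 and 110.4 CPM in ΔlaeA and 279 and 312 CPM in WT (-1.41 ± 0.14, edgeR adjusted p = 2.13e-06). In each case both ΔlaeA libraries were below both WT libraries, and 75.5% of all genes had no overlap between the groups in this comparison. These 3 calls of 6 stood in a comparison that called 15.5% of all genes and 10.7% of all genes as lower, and they are the genes singled out from it. The median of the 6 was -0.98, against -0.03 over all genes. Of all genes called there, 424 were higher and 941 lower, and 616 higher and 771 lower with library totals as the scaling. For Mycth_2312007 the 2 d libraries of each group lay close together, but the test takes 1 spread per gene over all 12 groups. That spread includes the WT pair at 4 d, with 104 and 310.3 CPM. Its call was the least firm. It was lost without WT replicate 2, without ΔlaeA replicate 1 and without ΔlaeA replicate 2, each of which leaves 2 of 6 genes called. The log2 fold change in those 3 fits was -1.11, -1.21 and -1.16, and the edgeR or DESeq2 adjusted p ran from 3e-09 to 0.0611 over 12 alternatives.

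The sec genes at 2 d went separate ways. The glycosylation gene sec53 had 147 and 167 CPM in ΔlaeA and 278 and 263 CPM in WT, a difference of -0.78 ± 0.15 (edgeR adjusted p = 0.000914). By contrast, sec72 had 665 and 629 CPM in ΔlaeA and 451 and 411 CPM in WT, a difference of 0.59 ± 0.17 (edgeR adjusted p = 0.0115). Both were below 2-fold. The exocytosis gene sec2 had 35.7 and 37.8 CPM in ΔlaeA and 40.7 and 49.5 CPM in WT (-0.30 ± 0.16, edgeR adjusted p = 0.164).

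After 4 d, edgeR called 0 of 6 genes, DESeq2 called 0, and 4 had an unadjusted p below 0.05, in a comparison that called 19.1% of all genes. The median was 0.33 for the 6 genes and 0.01 for all genes. Closest to the 2-fold line was sec2, with 74.7 and 72.7 CPM in ΔlaeA and 35.6 and 47.0 CPM in WT (0.83 ± 0.16, edgeR adjusted p = 0.000714). Both ΔlaeA libraries held more sec2 than any other library of the series. The sec53 gene had 207 and 278 CPM in ΔlaeA and 151 and 194 CPM in WT (0.49 ± 0.15, edgeR adjusted p = 0.0166), and sec72 had 414 and 374 CPM in ΔlaeA and 303 and 399 CPM in WT (0.17 ± 0.16, edgeR adjusted p = 0.438). For sec72 the groups overlapped. Among the translocation protein genes, Mycth_2309221 stayed lower, with 313 and 286 CPM in ΔlaeA and 523 and 469.7 CPM in WT (-0.73 ± 0.14, edgeR adjusted p = 0.000587). Mycth_2316209 overlapped, with 524 and 326 CPM in ΔlaeA and 532 and 425 CPM in WT.

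Mycth_2312007 at 4 d depends on 1 library. It had 379 and 322 CPM in ΔlaeA, whereas the WT pair held 104 and 310.3 CPM, a 2.98-fold gap between replicates. For the 5 other genes the ratio of WT replicate 2 to replicate 1 lay between 0.798 and 1.32. The log2 fold change of ΔlaeA over WT was 0.76 ± 0.32 (edgeR adjusted p = 0.0682). It was 1.75 and called without WT replicate 2, and 0.17 without WT replicate 1. Leaving out WT replicate 2 also took sec2 to 1.049, past the 2-fold line.

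After 6 d, 1 of 6 genes was called, against 10.4% of all genes. It was Mycth_2316209, now higher in ΔlaeA, with 767 and 744 CPM against 378 and 364 CPM in WT (1.02 ± 0.20, edgeR adjusted p = 0.00147). The value lies on the 2-fold line and was 0.997 with a filter at 10 CPM. The sec2 gene remained above WT by less than 2-fold, with 52.3 and 48.9 CPM in ΔlaeA and 38.7 and 31.7 CPM in WT (0.52 ± 0.16, edgeR adjusted p = 0.027). The other 4 genes had log2 fold changes between -0.31 and 0.15, none past the test. The median was 0.10 for the 6 genes and 0.01 for all genes.

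**Figure D3:**
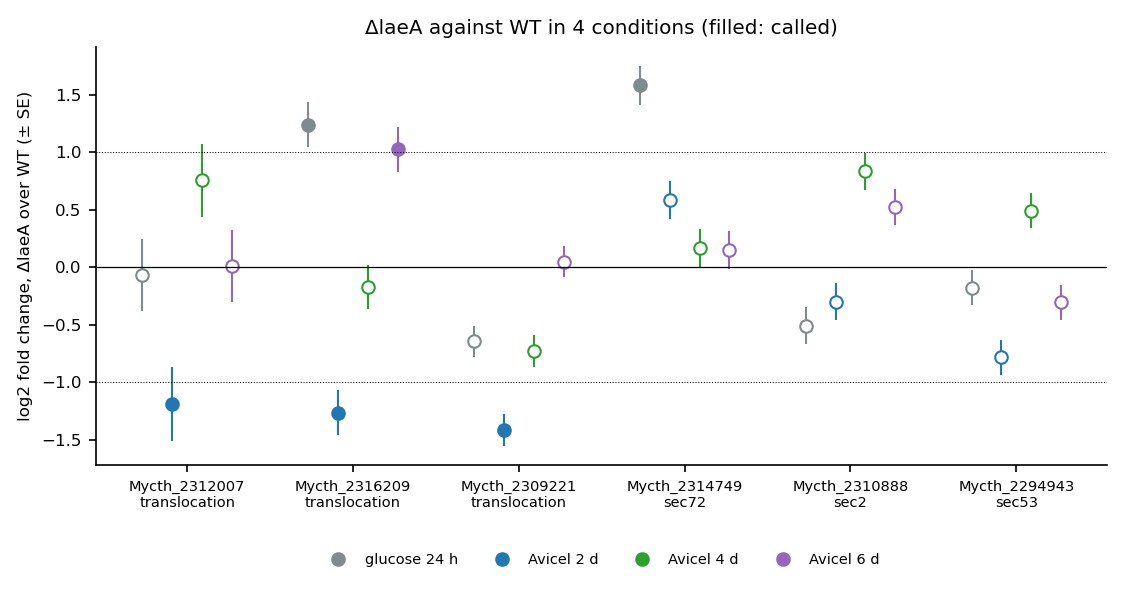
Log2 fold change of ΔlaeA over WT (vertical axis, ± SE) for each of the 6 genes on glucose at 24 h and on Avicel at 2, 4 and 6 d; filled points are called and dotted lines mark 2-fold. Mycth_2316209 is filled above the line on glucose and at 6 d and filled below it at 2 d.

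The difference between conditions was itself tested as an interaction, that is, the ΔlaeA over WT log2 fold change in one condition minus that in the preceding one. The largest step among the 6 genes was that of Mycth_2316209. This gene had been singled out from the 2 d comparison, and neighbouring steps share libraries, so its steps are neither independent evidence nor independent of each other. Its ΔlaeA effect was 1.24 on glucose, -1.26 at 2 d, -0.17 at 4 d and 1.02 at 6 d. Each step was called: -2.50 ± 0.28 from glucose to 2 d (edgeR adjusted p = 1.76e-05), 1.09 ± 0.28 from 2 d to 4 d (0.00615) and 1.20 ± 0.28 from 4 d to 6 d (0.00337). The first step kept its call whichever library was left out. The second came to 0.94 without WT 4 d replicate 2 and 0.65 without ΔlaeA 4 d replicate 1, and the third to 0.91 without ΔlaeA 4 d replicate 2.

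Between 2 d and 4 d, the ΔlaeA effect moved upward by more than 2-fold in 4 of 6 genes, against 23.7% of all genes called in either direction and 12.9% called upward in that test. Besides Mycth_2316209 these were Mycth_2312007 (1.94 ± 0.45, edgeR adjusted p = 0.00386), sec53 (1.27 ± 0.21, 0.000333) and sec2 (1.13 ± 0.23, 0.00119). Mycth_2312007 had 1.31 without WT 4 d replicate 1 and 2.94 without WT 4 d replicate 2, and with only the compared groups in the fit it had 1.92 and was not called. The step of sec53 was 0.98 without ΔlaeA 4 d replicate 2, and that of sec2 was 0.90 without WT 4 d replicate 1 and 0.98 without WT 2 d replicate 2. With library totals the steps of sec2 (0.995) and Mycth_2316209 (0.94) were short of 2-fold. Mycth_2309221 changed by 0.69 ± 0.19 and sec72 by -0.42 ± 0.23. The median was 1.11 for the 6 genes and 0.06 for all genes; since these genes were singled out from the 2 d and 4 d comparisons, this difference is not independent evidence either. From glucose to 2 d, 1 of 6 genes was called (12.5% of all genes). Mycth_2312007 changed by -1.12 ± 0.45 (edgeR adjusted p = 0.0896) and was not called. It was called at -1.11 both in DESeq2 and with only the compared groups in the fit. A fit without WT 4 d and Δgrf-3, chosen after seeing the data, called it at -1.12 with an SE of 0.17. In that step sec72 changed by -0.99 ± 0.23, which was called at -1.30 without WT glucose replicate 1, at -1.01 without ΔlaeA glucose replicate 2, at -1.06 without WT 2 d replicate 2 and at -1.04 without ΔlaeA 2 d replicate 1. From 4 d to 6 d, 1 of 6 was called (23.8% of all genes), and Mycth_2312007 was called there at -1.74 without WT 4 d replicate 2 only.

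Within WT, the move to Avicel was accompanied by more mRNA of 2 translocation protein genes. At 2 d, Mycth_2316209 had 838 and 874 CPM, against 253 and 174 CPM on glucose (2.00 ± 0.20, edgeR adjusted p = 3.33e-06). Mycth_2312007 had 212 and 236 CPM at 2 d and 96.7 and 83.1 CPM on glucose (1.32 ± 0.32, edgeR adjusted p = 0.00509). These 2 of 6 calls compare with 15.6% of all genes, and 9.99% in the upward direction. Both genes had been singled out from a comparison in which these WT 2 d libraries lay above ΔlaeA, so the count is not independent evidence. The carbon source and the time of growth, 24 h on glucose and 2 d on Avicel, cannot be told apart. The sec72 gene was 0.95 ± 0.17 higher at 2 d and was called at 1.25 without WT glucose replicate 1 and at 1.02 without WT 2 d replicate 2. Mycth_2309221, sec2 and sec53 had log2 fold changes of -0.25, 0.16 and -0.02.

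Along the WT Avicel series most steps of the 6 genes were below 2-fold. From 2 d to 4 d, edgeR called 0 of 6 genes, DESeq2 called 0, and 3 had an unadjusted p below 0.05, against 19% of all genes called. Those 3 were Mycth_2316209 (-0.84 ± 0.20), Mycth_2309221 (0.75 ± 0.14) and sec53 (-0.65 ± 0.15). Mycth_2316209 was called at -1.002 without WT 4 d replicate 1, and Mycth_2312007 at -1.11 without WT 4 d replicate 2. From 4 d to 6 d, 1 of 6 was called against 19.9% of all genes. That was Mycth_2312007 (-1.12 ± 0.32, edgeR adjusted p = 0.0107), whose change was -0.12 without WT 4 d replicate 2 and -1.06, no longer called, without WT 6 d replicate 2. It was also not called with library totals as the scaling (-0.85) or with only both groups in the fit (-1.11). Mycth_2309221 had 279 and 312 CPM at 2 d, 523 and 469.7 CPM at 4 d and 311 and 281 CPM at 6 d, steps of 0.75 ± 0.14 and -0.75 ± 0.14, each below 2-fold. The libraries did not overlap on either side of 4 d, as was the case for 71.5% of all genes between 4 d and 2 d and 64.2% between 6 d and 4 d. The median log2 fold changes of the 6 genes were 0.55 for 2 d over glucose, -0.21 for 4 d over 2 d and -0.44 for 6 d over 4 d, against -0.02, 0.00 and 0.01 for all genes. The genes had been singled out on the 2 d and 4 d libraries used here, so these medians are not independent evidence.

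Within ΔlaeA the series had another shape. From glucose to 2 d, 1 of 6 genes was called, against 12% of all genes. It was Mycth_2309221, with 111 and 110.4 CPM at 2 d and 219 and 232 CPM on glucose (-1.03 ± 0.14, edgeR adjusted p = 6.04e-05), a value on the 2-fold line that came to -0.98 without ΔlaeA glucose replicate 2, -0.95 with library totals, and -0.99 both without a low-count filter and with one at 10 CPM. From 2 d to 4 d, 3 of 6 rose, against 23.6% of all genes called in either direction and 13.4% called higher. The 6 genes had been singled out from comparisons that hold these ΔlaeA libraries, so this count is not independent evidence. Mycth_2312007 had 379 and 322 CPM at 4 d and 100.2 and 96.6 CPM at 2 d (1.83 ± 0.32, edgeR adjusted p = 0.000308). Mycth_2309221 had 313 and 286 CPM at 4 d and 111 and 110.4 CPM at 2 d (1.43 ± 0.14, edgeR adjusted p = 8.49e-07). The sec2 gene had 74.7 and 72.7 CPM at 4 d and 35.7 and 37.8 CPM at 2 d (1.00 ± 0.16, edgeR adjusted p = 9.81e-05). That last value sits on the line and lost its call in 3 of the 4 fits with a library left out, at 0.95 to 0.98 (without ΔlaeA 2 d replicate 1, 4 d replicate 1 or 4 d replicate 2). It also lost the call with RLE scaling and in DESeq2 (0.993 each), with library totals (0.76), without a low-count filter (0.97), with one at 10 CPM (0.96) and with only both groups in the fit (0.93).

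From 4 d to 6 d in ΔlaeA, 2 of 6 genes were called, against 25.5% of all genes. Mycth_2312007 had 98.0 and 94.5 CPM at 6 d and 379 and 322 CPM at 4 d (-1.86 ± 0.32, edgeR adjusted p = 0.000253). It was thus high in both 4 d ΔlaeA libraries and low in all other ΔlaeA libraries. The sec53 gene had 106 and 114 CPM at 6 d and 207 and 278 CPM at 4 d (-1.14 ± 0.15, edgeR adjusted p = 1.82e-05), and the value was -0.92 both without ΔlaeA 4 d replicate 2 and with library totals. Mycth_2316209 gained 0.83 ± 0.20, called at 1.19 without ΔlaeA 4 d replicate 1. The sec72 gene declined along the series, with 665 and 629 CPM at 2 d, 414 and 374 CPM at 4 d and 287 and 256 CPM at 6 d, in steps of -0.72 ± 0.17 and -0.54 ± 0.17 (edgeR adjusted p = 0.00205 and 0.0132), each below 2-fold. For ΔlaeA, the medians of the 6 genes were -0.27, 0.81 and -0.54 over the 3 steps, against -0.02, 0.06 and 0.01 for all genes. These medians carry the same limit, since the steps use the 2 d and 4 d libraries on which the genes were singled out.

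**Figure D4:**
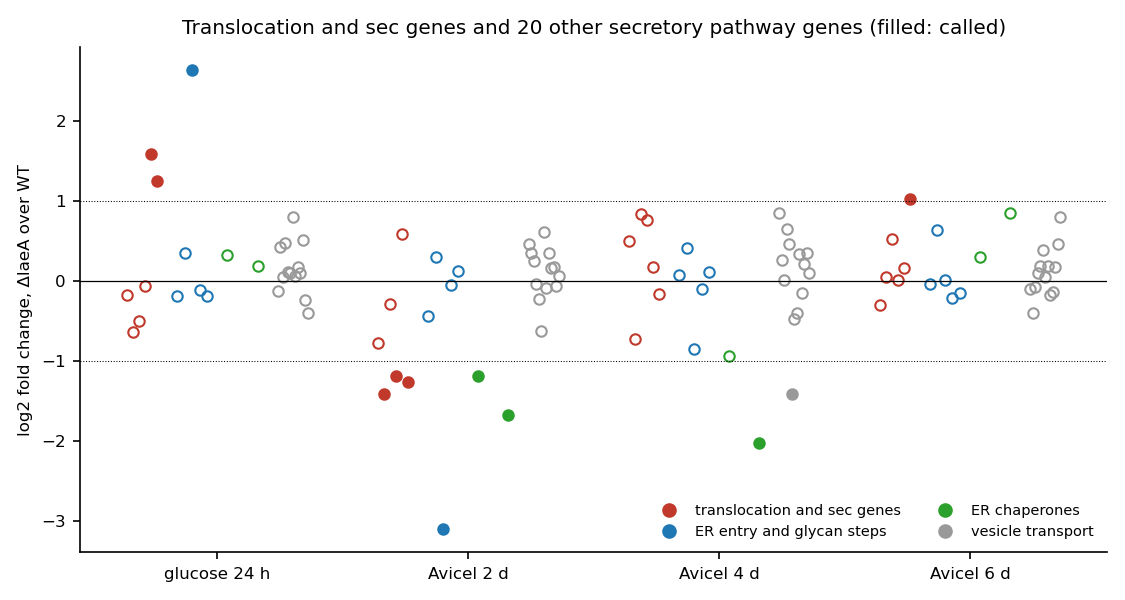
Log2 fold change of ΔlaeA over WT (vertical axis) on glucose at 24 h and on Avicel at 2, 4 and 6 d for the 6 translocation and sec genes and for 20 other secretory pathway genes in 3 sets; filled points are called and dotted lines mark 2-fold. The SRP54 gene is the filled ER entry point, at 2.63 on glucose and -3.11 at 2 d.

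The other secretory pathway genes were taken from the study's text and the gene descriptions available: 5 genes of ER entry and glycan transfer, 2 ER chaperone genes and 13 vesicle transport genes. On these same libraries, the study had named both chaperone genes as lower in ΔlaeA at 2 d and sec5, of the vesicle set, as higher at 4 d. Their directions in those comparisons are therefore not independent evidence. Of the 20 genes, the numbers called in ΔlaeA against WT were 1 higher on glucose, 3 lower at 2 d, 2 lower at 4 d and 0 at 6 d, against 11.9%, 15.5%, 19.1% and 10.4% of all genes called in either direction. The 3 calls at 2 d were all in the lower direction, in which 10.7% of all genes were called, and they include both chaperone genes. The medians of the 20 were 0.10, 0.01, 0.08 and 0.07, against -0.03, -0.03, 0.01 and 0.01 over all genes tested. At 6 d DESeq2 likewise called 0 of the 20, and 5 had an unadjusted p below 0.05 in edgeR. Of these, sec5, an exocyst subunit gene in yeast, had 0.80 with an edgeR adjusted p of 0.00149 and was called at 1.09 without WT 6 d replicate 1.

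The gene described as the SRP54 subunit, Mycth_2078150, whose yeast and mammalian counterparts bind the signal peptide in the signal recognition particle, had changes of up to -3.60 on the log2 scale in the pairwise comparisons, against 2.00 at most in size among the 6 genes. It had 607 and 687 CPM in ΔlaeA and 79.0 and 129 CPM in WT on glucose (2.63 ± 0.32, edgeR adjusted p = 3.55e-05). At 2 d it had 117 and 119 CPM in ΔlaeA and 879 and 1155 CPM in WT (-3.11 ± 0.33, edgeR adjusted p = 5.12e-06). The interaction between both conditions was -5.74 ± 0.46 (edgeR adjusted p = 9.79e-07), so SRP54 and Mycth_2316209 were higher in ΔlaeA on glucose and lower in ΔlaeA at 2 d. At 4 d SRP54 had 30.5 and 62.2 CPM in ΔlaeA and 68.8 and 98.5 CPM in WT (-0.85, edgeR adjusted p = 0.0384), and it was called at -1.09 without WT 4 d replicate 1 and at -1.46 without ΔlaeA 4 d replicate 1. At 6 d the groups overlapped, with 312 and 411 CPM in ΔlaeA and 291 and 429 CPM in WT. SRP54 was called in 11 of the 14 pairwise comparisons. The called changes over WT on glucose were 1.18 in Δgrf-1, 2.06 in Δgrf-2 and 1.43 in Δgrf-3, and that in Δgrf-1 was 0.87 without WT replicate 2. With only both groups in the fit, the calls in Δgrf-2, which has 1 library, and in Δgrf-3 were lost, at 2.05 and 1.41. In Δcre-1, where it was not called, SRP54 had 104 and 105 CPM.

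The ER chaperone genes Mycth_2300892 and Mycth_80427, which are members of the folding machinery that receives translocated proteins, were both lower at 2 d in ΔlaeA. The study had named them from that comparison. Mycth_2300892 had 217 and 297 CPM in ΔlaeA and 541 and 638 CPM in WT (-1.20 ± 0.19), and -0.99 without ΔlaeA replicate 2. Mycth_80427 had 342 and 736 CPM in ΔlaeA and 1594 and 1852 CPM in WT (-1.68 ± 0.50). Its call was lost, at -1.51 and -1.23, without WT replicate 1 or ΔlaeA replicate 2, and at -1.63 with only both groups in the fit. At 4 d, Mycth_80427 remained called with 124 and 139 CPM in ΔlaeA and 371 and 708 CPM in WT (-2.03 ± 0.51), and its call was lost, at -1.496, without WT replicate 1. At that day Mycth_2300892 had -0.94 and was called at -1.001 without WT replicate 2 and at -1.22 without ΔlaeA replicate 1. The Golgi transport gene Mycth_2076157 (SFT2-like) was the other call at 4 d, with 48.7 and 51.8 CPM in ΔlaeA and 123 and 145 CPM in WT (-1.41 ± 0.14, edgeR adjusted p = 1.53e-06).

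Of the 20 list genes, 3 were called in Δcre-1, 2 in Δgrf-3, 3 in WT at 2 d over glucose, 4 in WT at 4 d over 2 d and 4 in WT at 6 d over 4 d, against 35.6%, 13.5%, 15.6%, 19% and 19.9% of all genes. In Δcre-1 both chaperone genes were higher, Mycth_80427 by 3.36 ± 0.53 and Mycth_2300892 by 1.49 ± 0.19 (0.89, no longer called, with library totals), and Mycth_2076157 was lower (-1.03 ± 0.14, and -0.91 without WT replicate 1 or -0.999 in DESeq2). Δgrf-3 had Mycth_80427 called at 1.49 ± 0.50, resting on a pair of 297 and 1265 CPM, and the call was lost at 1.51, 1.48 and 0.10 without WT replicate 1, WT replicate 2 or Δgrf-3 replicate 1, and at 1.48 with only both groups in the fit. In WT from glucose to 2 d, SRP54 rose by 3.29 ± 0.33, Mycth_80427 by 2.64 ± 0.52 and Mycth_2300892 by 1.30 ± 0.19, and all 3 fell between 2 d and 4 d (-3.60, -1.68 and -1.65). The change of Mycth_80427 was -1.53 and -1.28, no longer called, without WT 2 d replicate 1 or WT 4 d replicate 2. The RabGAP/TBC gene Mycth_18938 rose by 1.00 in that step (0.98 without WT 4 d replicate 1 and 0.90 with library totals). From 4 d to 6 d in WT, SRP54 rose by 2.11, while Mycth_80427, Mycth_2076157 and sec5 fell (-1.75, -1.15 and -1.15). Without WT 4 d replicate 1 or WT 6 d replicate 2, Mycth_80427 lost its call at -1.22 and -1.61. Mycth_2076157 came to -0.95 without WT 6 d replicate 1, and sec5 to -0.99 and -0.95 without WT 4 d replicate 2 or WT 6 d replicate 2. With library totals both missed the call, at -0.90 and -0.88.

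In ΔlaeA, 1, 4 and 3 of the 20 list genes were called over the 3 steps, against 12%, 23.6% and 25.5% of all genes. SRP54 fell between glucose and 2 d (-2.46) and between 2 d and 4 d (-1.34, and -0.97 without ΔlaeA 4 d replicate 2), and rose by 2.96 between 4 d and 6 d. Both chaperone genes fell between 2 d and 4 d (-2.03 for Mycth_80427 and -1.40 for Mycth_2300892). Without ΔlaeA 2 d replicate 1, Mycth_80427 had -1.38 and was no longer called. Over the same step 3 of the 6 translocation and sec genes were called higher, against 13.4% of all genes, while sec72 fell by less than 2-fold (-0.72). Of those 3, sec2 lost its call in most other fits, as given above. The ARF/SAR GTPase gene Mycth_2079774, of a family that drives coat assembly at vesicles, fell (-1.21). From 4 d to 6 d, Mycth_2300892 rose by 1.12 (0.88 without ΔlaeA 4 d replicate 2). Mycth_80427 also rose by more than 2-fold but was called only under other settings, given below. The syntaxin gene Mycth_108565 fell (-1.03, and -0.995, short of 2-fold, without ΔlaeA 4 d replicate 1, or -0.80 with library totals). Outside the calls given for the 20 listed genes in the 14 pairwise comparisons, no further gene of the list was called.

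Across the 12 group means, the 6 genes did not share a single pattern. Pearson's r on log2 CPM ran from -0.66 between Mycth_2309221 and sec72 to 0.75 between Mycth_2312007 and sec2, over the 15 pairs, as a description of 12 points that share strains, media and libraries. Among the translocation protein genes it was 0.39, 0.40 and 0.25. The genes whose group means were most like each of the 6, out of 7177 candidates, were mostly without description here. They were Mycth_43163 (r = 0.950) and Mycth_91276 (0.943) for Mycth_2312007, Mycth_2074663, described as a regulator of G protein signalling (0.932), and Mycth_2304860 (0.885) for Mycth_2316209, and Mycth_2095639 (0.921) and Mycth_2307666 (0.918) for Mycth_2309221. For sec72 they were Mycth_107295, described as an aflatoxin biosynthesis regulatory protein (0.924), and Mycth_2304122 (0.895). For sec2 they were Mycth_112924, described as transglutaminase-like (0.940), and Mycth_2053489 (0.928), and for sec53 they were Mycth_2305675 (0.956) and Mycth_2294707 (0.925). Within the 20-gene pathway list, the highest r was 0.81 (12 group means), between sec72 and the GOLD domain gene Mycth_2089827. These values carry no test and say nothing of shared control.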

How the data were processed

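RNA was extracted from mycelium with TRIzol and RNeasy, and Illumina libraries were sequenced. Per the labels and the study's methods, the authors aligned reads with TopHat2 (2.0.8b in the submitters' processing notes) and counted them on exons with HTSeq (0.5.4p2 in those notes; the study's methods name another version). No source used here names the genome build, the annotation or the strand setting. The deposited values are raw read counts per gene. Of the columns, 1 held length-normalized values and was not used, so Δgrf-2 has 1 library. The table's 2 lines without a gene were left out. Gene IDs were matched by locus tag to RefSeq (9087 of 9110), for identity only.

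Counts were filtered with filterByExpr (8827 of 9110 genes kept), scaled by TMM and fitted over all 12 groups with edgeR 4.0.16 (R 4.3.3, glmQLFit and glmQLFTest), with 14 pairwise and 3 interaction contrasts. CPM are per 1000000 scaled reads, and log2 CPM used a prior count of 2. Calls needed an adjusted p below 0.05 (Benjamini-Hochberg) and a log2 change of at least 1. The script was tested on simulated data. The 6 genes and the pathway list were chosen with earlier results of these data known. Named are the 6 genes, up to 4 called list genes per comparison with the largest change, and the 2 genes most similar to each of the 6. The genes sec5, SRP54, Mycth_2300892 and Mycth_80427 are also given where they missed a call, chosen after their values were seen. Alternatives were RLE scaling, library totals, other count filters, DESeq2 1.42.0, fits of the compared groups alone, a replicate block, no fold limit and each library left out.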

Additional observations from a re-analysis of the deposited data

Results flagged for a closer look

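The difference in the ΔlaeA effect between neighbouring conditions was tested as an interaction in edgeR. Of the 6 translocation and sec genes, 1 was called between glucose and 2 d, 4 between 2 d and 4 d and 1 between 4 d and 6 d. Of the 20 list genes, 2 were called downward in the first step, 1 upward and 1 downward in the second and 3 upward in the third. Of all genes tested, 12.5% were called between glucose and 2 d, 23.7% between 2 d and 4 d and 23.8% between 4 d and 6 d. The 6 genes and both chaperone genes had been singled out from the 2 d or 4 d comparisons, so their calls are not independent evidence. For Mycth_2316209 the difference was -2.50 (log2) between glucose and 2 d on Avicel, 1.09 between 2 d and 4 d and 1.20 between 4 d and 6 d. For Mycth_2312007 it was 1.94, for sec2 (Mycth_2310888) 1.13 and for sec53 (Mycth_2294943) 1.27, each between 2 d and 4 d. Among the pathway genes, SRP54 (Mycth_2078150) had -5.74 between glucose and 2 d and 2.26 between 2 d and 4 d. The chaperone gene Mycth_2300892 had -1.52 between glucose and 2 d and 1.24 between 4 d and 6 d, and the chaperone gene Mycth_80427 had 2.88 between 4 d and 6 d. The ARF/SAR GTPase gene Mycth_2079774 had -1.09 between 2 d and 4 d, which was -0.996 and no longer called without WT 2 d replicate 2. The SFT2-like gene Mycth_2076157 had 1.79 between 4 d and 6 d. For SRP54, the step between 4 d and 6 d was not called with all libraries and was called at 1.46 without ΔlaeA 4 d replicate 1. Mycth_80427 between glucose and 2 d was likewise called at -2.51 only without ΔlaeA 2 d replicate 1 among the fits with a library left out.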

How the results depend on the processing

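Of 882 values of the 6 genes under other settings, 827 kept their side of the threshold, 18 lost a call, 37 gained one and 0 reversed, and of 468 values with a library left out 434 kept theirs. For the 8 pathway genes named, 1123 of 1176 and 595 of 624 values kept theirs. The number of the 6 genes called moved as follows; beyond the construction of each setting, the cause was not tested. With library totals as the scaling it was 1 in Δgrf-1, 4 in Δcre-1, 0 in WT from 4 d to 6 d, 0 in ΔlaeA from glucose to 2 d and 2 for the change of the ΔlaeA effect from 2 d to 4 d. That scaling moved the median of all genes by more than 0.1 in 10 of 17 comparisons, by -0.60 to 0.29. Without a low-count filter, and with a filter at 10 CPM, it was 0 in ΔlaeA from glucose to 2 d, and with the latter filter also 0 in ΔlaeA against WT at 6 d. With only the groups compared it was 0 in Δgrf-3, 0 in WT from 4 d to 6 d and 3 for the change of the ΔlaeA effect from 2 d to 4 d. In ΔlaeA from 2 d to 4 d it was 2 with RLE scaling, library totals, no filter, the filter at 10 CPM, DESeq2 and only the groups compared. For the change of the ΔlaeA effect from glucose to 2 d it was 2 with DESeq2, with only the groups compared, and in a fit without WT 4 d and Δgrf-3, chosen after seeing the data. On the adjusted p alone, with no fold limit, it was 4 in ΔlaeA on glucose, 2 in Δgrf-1, 2 in Δgrf-3, 5 in Δcre-1, 5, 3 and 2 in ΔlaeA against WT at 2, 4 and 6 d, 3 in WT from glucose to 2 d, 3 from 2 d to 4 d and 3 from 4 d to 6 d, 2, 5 and 5 in ΔlaeA over its 3 steps, and 3, 5 and 3 for the change of the ΔlaeA effect over the 3 steps. With a library left out it ranged from 1 to 2 in ΔlaeA on glucose, 0 to 1 in Δgrf-1, 0 to 2 in Δgrf-3, 2 to 3 in Δcre-1, 2 to 3, 0 to 2 and 1 to 1 in ΔlaeA against WT at 2, 4 and 6 d, 2 to 3, 0 to 1 and 0 to 1 in WT over its 3 steps, 0 to 1, 2 to 3 and 1 to 3 in ΔlaeA over its 3 steps, and 1 to 2, 3 to 4 and 0 to 2 for the change of the ΔlaeA effect over the 3 steps.

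The replicate numbers share only a number: deviations of same-numbered libraries correlated between -0.15 and 0.12 over 55 pairs of groups, 2 of them above 0.1. With the replicate block, the count of called genes stayed the same in 17 of 17 comparisons (for example 3 in ΔlaeA against WT at 2 d). Mycth_80427 gained calls in ΔlaeA from 4 d to 6 d (1.15) and for the change of the ΔlaeA effect from glucose to 2 d (-1.93). Both calls were also gained in DESeq2 (1.11 and -1.85) and with only the groups compared (1.12 and -1.84). The same held in the fit without WT 4 d and Δgrf-3 (1.13 and -1.86). The first was gained with library totals too (1.36).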
